A study of Homo sapiens with 15 samples.

Results

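VIM, FN1, CD44 and CDH2 are genes of the mesenchymal cell state, and the 4 were taken as a set for that role and not for any value measured in these cells. Earlier results of these data were, however, known when the genes were chosen. Chromatin immunoprecipitation with sequencing (ChIP-seq) had been carried out on MDA-MB-231 cells, an established human line of triple-negative breast cancer with a spindle-like, invasive growth form, and every peak near these genes is described here. A peak was a member where it shared at least 1 bp with the gene, or with the 10 kb on either side, in genome build hg19. In this way 50 of the 647617 peaks in the 4 deposited lists were members, namely 19 of 252459 in H3K4ox replicate 1, 23 of 246967 in H3K4ox replicate 2, 3 of 38584 in the H2A.Z list and 5 of 109607 in the RUVBL2 list. The windows measured 29.3 kb for VIM, 95.7 kb for FN1, 113.5 kb for CD44 and 246.5 kb for CDH2, 485.1 kb in all.

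The study asked how LOXL2, an oxidase that converts lysine 4 of histone H3 to the oxidised form H3K4ox, bears on chromatin compaction in this cancer. The labels name no knockdown, transgene or treatment for the ChIP-seq libraries, which came from the cultured line. All the libraries share this single line, and nothing states that the 2 H3K4ox libraries came from separate cultures, so the spread between them may be technical. H2A.Z and RUVBL2 had 1 library each and therefore no replicate error, the sequencing depth of every library is unknown, and no comparison below carries a test. The RNA libraries of the series were not analysed here, so the expression of the 4 genes in these cells is not given.

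Vimentin, encoded by VIM, is the intermediate filament of mesenchymal cells. Fibronectin, encoded by FN1, is a secreted glycoprotein of the extracellular matrix that binds integrins. CD44 is a membrane receptor for hyaluronan whose transcript is spliced into many forms, and it is widely used as a marker of breast cancer cells with stem-like properties. CDH2 encodes N-cadherin, a calcium-dependent adhesion protein that replaces E-cadherin when epithelial cells become mesenchymal. Among the targets of the antibodies, H2A.Z is a histone variant placed at many start sites and enhancers, and RUVBL2 is an ATPase of the remodelling complexes that exchange H2A.Z. H3K4ox has been linked to condensed chromatin.

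The start site of each gene was taken as its 5′ end in hg19. VIM lies on the plus strand of chr10:17270258-17279592, FN1 on the minus strand of chr2:216225163-216300895, CD44 on the plus strand of chr11:35160417-35253949 and CDH2 on the minus strand of chr18:25530930-25757445. The 250 bases before the start are shown because the peaks near the start sites are described below. They are from RefSeq in build GRCh38.p14, at chr10:17227991-17228240 on the plus strand for VIM, chr2:215436069-215436318 on the minus strand for FN1, chr11:35138921-35139170 on the plus strand for CD44 and chr18:28177131-28177380 on the minus strand for CDH2. These positions belong to that build and cannot be set beside the hg19 positions of the peaks, so the RefSeq start need not be the same base as the hg19 start. For CDH2, which has 2 starts in the table, the outermost is given. Sequences run 5′ to 3′ with each CpG in capitals.
VIM: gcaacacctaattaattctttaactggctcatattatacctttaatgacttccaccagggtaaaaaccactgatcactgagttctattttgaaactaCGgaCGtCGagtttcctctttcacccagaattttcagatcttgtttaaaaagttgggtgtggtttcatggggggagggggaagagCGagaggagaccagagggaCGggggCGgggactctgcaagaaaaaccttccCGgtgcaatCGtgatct
FN1: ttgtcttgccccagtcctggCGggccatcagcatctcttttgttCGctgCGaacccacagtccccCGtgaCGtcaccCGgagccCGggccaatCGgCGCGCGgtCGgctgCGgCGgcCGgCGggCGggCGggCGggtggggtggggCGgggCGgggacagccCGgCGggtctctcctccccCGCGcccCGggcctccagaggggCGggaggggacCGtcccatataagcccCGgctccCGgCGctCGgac
CD44: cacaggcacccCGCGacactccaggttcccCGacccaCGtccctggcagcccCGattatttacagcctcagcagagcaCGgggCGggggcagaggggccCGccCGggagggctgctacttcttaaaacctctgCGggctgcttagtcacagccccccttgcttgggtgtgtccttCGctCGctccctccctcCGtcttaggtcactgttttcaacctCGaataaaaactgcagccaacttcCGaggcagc
CDH2: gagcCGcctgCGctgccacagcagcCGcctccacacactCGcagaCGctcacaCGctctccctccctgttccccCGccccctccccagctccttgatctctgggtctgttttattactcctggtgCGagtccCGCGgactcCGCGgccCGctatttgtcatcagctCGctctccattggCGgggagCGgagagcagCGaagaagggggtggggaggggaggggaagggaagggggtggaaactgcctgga

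The start of FN1 was rich in CpG and those of the other genes less so. The sequence of FN1 held 32 CpG and 76.4% G and C, and 9.52% of the 35116 promoters in the table had at least as many CpG in the same 250 bases. CDH2 held 17 CpG with 66.0% G and C, CD44 15 with 62.4%, and VIM 8 with 46.0%, where the median promoter held 11 CpG and 58.0%. Each motif was searched on both strands. The GC box GGGCGG, a binding sequence of Sp factors, occurred 6 times before FN1, 2 times before CD44 and 1 time each before VIM and CDH2, and 42.6% of all promoters held it. Matches that overlap were each counted, as in the run of repeats before FN1, and every GC box holds a CpG. The CCAAT box, spelled CCAAT, occurred 1 time each before FN1, on the strand shown, and CDH2, on the opposite strand, and was in 32.0% of promoters. The letters TATAA occurred 1 time each before VIM, on the opposite strand, and FN1, on the strand shown, and were in 18.9% of promoters. These matches describe the letters and do not show a bound site.

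Summed over the 4 windows, each antibody gave fewer peaks per length than over the genome. Longer windows weigh more in this sum, and CDH2 made up 246.5 of the 485.1 kb. The mean H3K4ox density of CDH2, 0.304 ± 0.029 per 10 kb (SD, n = 2), was the lowest of the 4 genes. FN1, at 0.522 ± 0.443, and CD44, at 0.484 ± 0.187, were also below the genome mean. VIM, at 1.02 ± 0.48, was above it, through replicate 2 alone. H3K4ox had 0.392 peaks per 10 kb in replicate 1 and 0.474 in replicate 2 over the 4 windows together, or 0.433 ± 0.058 (SD, n = 2), against 0.868 ± 0.014 (SD, n = 2) over the genome. H2A.Z had 0.0618 peaks per 10 kb in the windows, against 0.134 over the genome. RUVBL2 had 0.103 per 10 kb in the windows, against 0.381 over the genome. The H3K4ox density in the windows was thus 0.499 ± 0.075 (SD, n = 2) times that of the genome. The H2A.Z density was 0.461 times and the RUVBL2 density 0.270 times that of the genome. The ratios rose with wider flanks. With 50 kb on either side of each gene they were 0.580 ± 0.120 (SD, n = 2) for H3K4ox and 0.648 for H2A.Z. RUVBL2 then had 15 peaks, 0.186 per 10 kb or 0.489 times the genome. With only the best-scoring 50% of peaks, the H3K4ox ratio was 0.190 ± 0.070 (SD, n = 2) and RUVBL2 had 0 peaks in the windows. The genome mean was taken over 2876 Mb, without 22 stretches of at least 1 Mb in which no list had a peak.

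**Figure D1:**
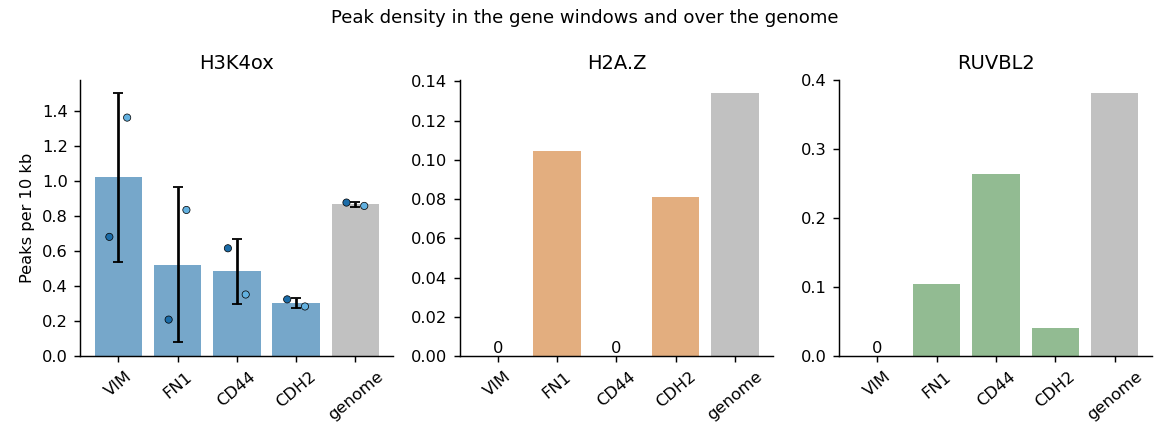
Peaks per 10 kb for H3K4ox, H2A.Z and RUVBL2 in the windows of VIM, FN1, CD44 and CDH2, with the mean over the genome at the right in grey. For H3K4ox the bar is the mean of 2 replicates, the points are the replicates and the error bar is the SD. The VIM bar for H3K4ox is above the genome bar and the other gene bars are below it, and a 0 marks genes with no peak.

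The genes were not alike. With its flanks, the VIM window had the highest H3K4ox density and neither H2A.Z nor RUVBL2. Its window held 2 H3K4ox peaks in replicate 1 and 4 in replicate 2, or 1.02 ± 0.48 peaks per 10 kb (SD, n = 2). In FN1 the counts were 2 and 8, or 0.522 ± 0.443 per 10 kb (SD, n = 2). In CD44 they were 7 and 4, or 0.484 ± 0.187 per 10 kb (SD, n = 2). In CDH2 they were 8 and 7, or 0.304 ± 0.029 per 10 kb (SD, n = 2). VIM lay above CD44 in both replicates, at 0.682 and 1.36 against 0.617 and 0.352 per 10 kb, and CD44 above CDH2, at 0.325 and 0.284. The lead of VIM in replicate 1, from 2 peaks, was smaller than its SD of 0.48. That of CD44 over CDH2 in replicate 2 was smaller than the CD44 SD of 0.187. The place of VIM rests on the 10 kb before the gene. Without flanks VIM had 0 and 1.07 H3K4ox peaks per 10 kb in the 2 replicates, against 0.264 and 0.792 in FN1, 0.428 and 0.428 in CD44 and 0.265 and 0.309 in CDH2, so that VIM was lowest in replicate 1 and highest in replicate 2. The replicate values of FN1 with flanks, 0.209 and 0.836, spanned those of CD44 and CDH2 and overlapped those of VIM, so the place of FN1 in this order is not larger than its spread. In CDH2 and CD44, but not in VIM or FN1, both replicates were below the genome mean of 0.868 by more than the replicate SD. That mean lies above the median window, as given for CD44 below.

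Windows with at most as many peaks were common for VIM and less so for CDH2. The genome was divided into adjoining windows of the length of each gene window, and the share with at most as many peaks was counted. For VIM this share was 60.4% for H3K4ox replicate 1, 82.1% for replicate 2, 73.4% for H2A.Z and 44.8% for RUVBL2. None of these counts was thus rare on the low side. In H3K4ox replicate 2 the 4 peaks of VIM were above the median of 2 for windows of its length. For FN1 the share was 16.3% for H3K4ox replicate 1, 66.1% for replicate 2, 70.2% for H2A.Z and 31.2% for RUVBL2. The replicates did not place this window alike. For CD44 the shares were 51.5% and 28.9% for the H3K4ox replicates, 40.9% for H2A.Z and 54.4% for RUVBL2. In H3K4ox replicate 1 CD44 held 7 peaks, equal to the median of windows of its length, where the mean was 10.1. In replicate 2 it held 4, against a median of 7 and a mean of 9.84. For CDH2 they were 19.3% and 16.5% for the H3K4ox replicates, 55.6% for H2A.Z and 6.88% for RUVBL2. The lowest share among the 16 values was thus that of RUVBL2 at CDH2, with 1 peak in 246.5 kb.

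The neighbourhoods of CDH2 and FN1 were themselves poor in H3K4ox, and that of VIM was above the genome mean of 0.868 per 10 kb. Within 1 Mb on either side of the CDH2 window, H3K4ox had 0.450 and 0.465 peaks per 10 kb in the 2 replicates, against 0.651 and 0.620 on chromosome 18 as a whole. For FN1 the surroundings had 0.535 and 0.595, against 0.704 and 0.682 on its whole chromosome. For CD44 they had 0.870 and 0.820, against 0.901 and 0.885. For VIM they had 0.965 and 0.950, against 1.05 and 1.03, with 0.325 RUVBL2 peaks per 10 kb, where the VIM window held 0. RUVBL2 had 0.270 peaks per 10 kb around CDH2, 0.190 around FN1 and 0.335 around CD44. H2A.Z had 0.135 around CDH2, 0.06 around FN1, 0.09 around CD44 and 0.14 around VIM, against 0.134 over the genome. In CDH2 and CD44 each H3K4ox replicate was lower in the window than in these surroundings. In VIM and FN1 replicate 1 was lower and replicate 2 higher.

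**Figure D2:**
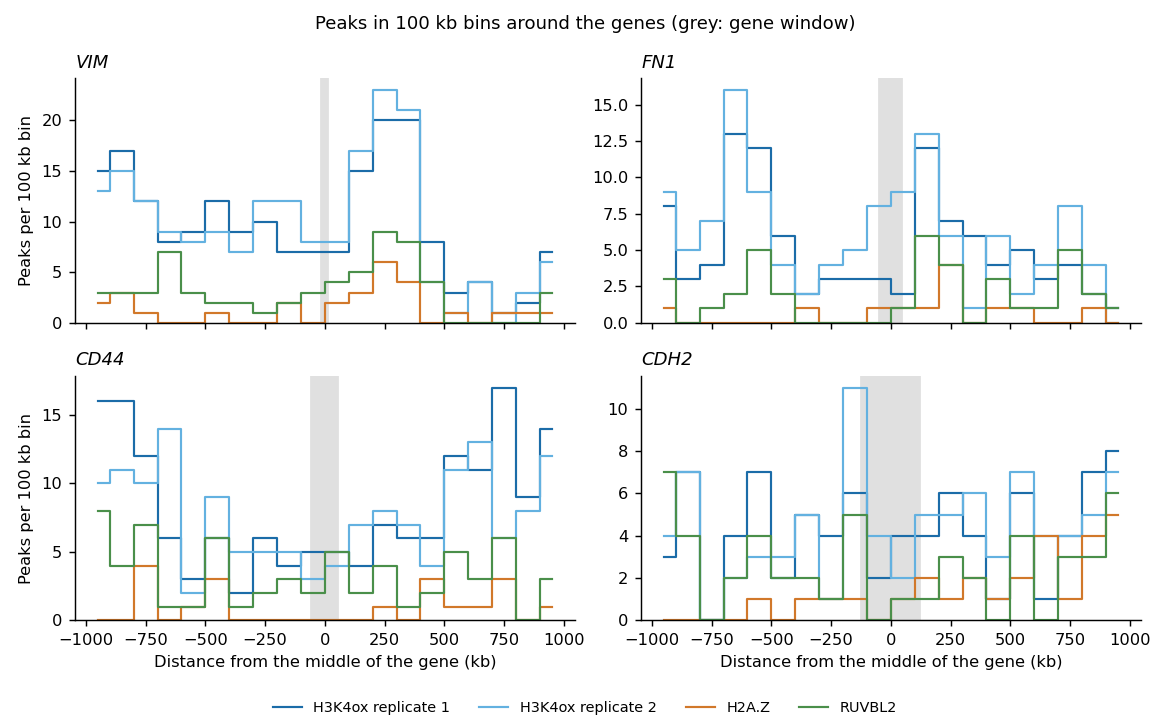
Peaks in bins of 100 kb within 1 Mb of the middle of each gene, by distance along the direction of transcription, for the 2 H3K4ox libraries, H2A.Z and RUVBL2. Grey marks the gene window of 29.3 kb for VIM, 95.7 kb for FN1, 113.5 kb for CD44 and 246.5 kb for CDH2, and the H3K4ox lines of VIM reach 20 and 23 peaks per bin in the bin that starts 200 kb after its middle, where the bins that hold the gene have 7 and 8.

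At the start sites themselves almost nothing was found. None of the 4 start sites lay inside a peak of any list. Peaks cover 9.40% and 8.87% of the genome in the H3K4ox lists, 1.22% in the H2A.Z list and 4.26% in the RUVBL2 list, the background for this count. Within 1 kb on either side, H3K4ox replicate 1 had a peak at 1 of 4 genes, CD44, and the other 3 lists had none. Windows of that length along the genome held a peak in 23.3% of cases for H3K4ox replicate 1, 22.5% for replicate 2, 3.72% for H2A.Z and 10.8% for RUVBL2. A count of 1 or 0 genes in 4 is near these shares. Start sites of other genes were not used here, since no gene annotation of hg19 was given.

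VIM had its peaks before the gene rather than in it. Of its 6 peaks, all H3K4ox, 5 lay in the 10 kb before the start and 1 in the gene. The nearest site was found in both replicates at chr10:17266322-17267079, 3.18 kb before the start, with scores of 65.29 in replicate 1 and 70.82 in replicate 2. The best-scoring site of VIM, at chr10:17261822-17262713 and 7.55 kb before the start, was also in both, with 81.29 and 92.66. Replicate 2 alone had a peak of score 51.35 between these sites and a peak of score 57.91 in the gene, at chr10:17275986-17276729. The stretch from 3.18 kb before the start to 5.73 kb after it held no peak of any list. Just outside the window a RUVBL2 peak of score 51.33 lay 10.5 kb before the start, and the nearest H2A.Z peak, of score 50.81, lay 28.9 kb after it.

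FN1 held the only H2A.Z peak near a start site. This peak, at chr2:216298319-216299126, began 1.77 kb inside the gene and scored 86.80, above 71.8% of the H2A.Z list. H3K4ox replicate 2 had a peak at the same place, at chr2:216298376-216299018 with a score of 66.93, and in replicate 1 the closest peak to it was 7035 bp away. Of points spaced 10 kb apart along the genome, 94.5% lay as far as this start site or farther from an H2A.Z peak. H3K4ox was found in both replicates at chr2:216290094-216291341, 9.55 kb into the gene with scores of 60.78 and 55.67, and at chr2:216265239-216266525, 34.4 kb into it with scores of 76.17 and 89.23. Of the 8 H3K4ox peaks of replicate 2, 6 had no counterpart in replicate 1, with scores of 54.62 to 134.96. They include the best-scoring member of all, chr2:216249905-216251184 with a score of 134.96, for which the closest peak of replicate 1 was 14497 bp away. The single RUVBL2 peak, chr2:216253755-216254389 with a score of 56.61, lay 46.5 kb into the gene and met no other peak.

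CD44 had the only peak that reached close to a start site, and it was seen in 1 replicate. H3K4ox replicate 1 had a peak at chr11:35159466-35160300, which ended 0.117 kb before the start and scored 68.27, while the nearest peak of replicate 2 lay 8.71 kb after the start with a score of 50.02, close to the minimum of 50 in that list. Both replicates had H3K4ox at 3 sites in the gene. At chr11:35196975-35198174, 36.6 kb into it, the scores were 102.96 and 89.62. The other sites, chr11:35246714-35247637 with scores of 51.37 and 77.28 and chr11:35248151-35249197 with 106.61 and 68.08, lay 86.3 and 87.7 kb into a gene of 93.5 kb, near its 3′ end. Replicate 1 alone had a pair of peaks 8.10 and 8.97 kb before the start, with scores of 56.15 and 64.59, and a peak of score 60.45 at 81.8 kb into the gene. RUVBL2 had 3 peaks, 47.9, 73.6 and 76.4 kb into the gene, with scores of 53.15, 56.33 and 53.29, and none of them met H3K4ox. H2A.Z had no peak nearer than 257.0 kb, and 7.21% of points along the genome were as far from H2A.Z or farther.

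CDH2, the longest gene, had 15 H3K4ox peaks in its window, of which 8 were in replicate 1 and 7 in replicate 2. Both replicates had H3K4ox at chr18:25741047-25741720, 15.7 kb into the gene with scores of 69.23 and 64.27, at chr18:25713174-25713954, 43.5 kb into it with 61.30 and 50.95, and at chr18:25586090-25587145, 170.3 kb into it with 80.57 and 62.05. The last of these sites was the only H3K4ox region of the 4 genes with RUVBL2, from a peak at chr18:25586042-25586784 with a score of 51.00, near the minimum. The best-scoring peak of replicate 1, at chr18:25598949-25599588 with 98.22, and that of replicate 2, at chr18:25657382-25658056 with 90.54, were each without a counterpart. H2A.Z had a peak of score 66.02 at chr18:25590367-25591271, 166.2 kb into the gene and apart from H3K4ox. A second, at chr18:25520968-25521485 with 55.86, lay beyond the 3′ end and met an H3K4ox peak of replicate 1 with a score of 52.14. The nearest peaks to the start were 6.98 kb before it in replicate 1 and 6.70 kb after it in replicate 2.

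**Figure D3:**
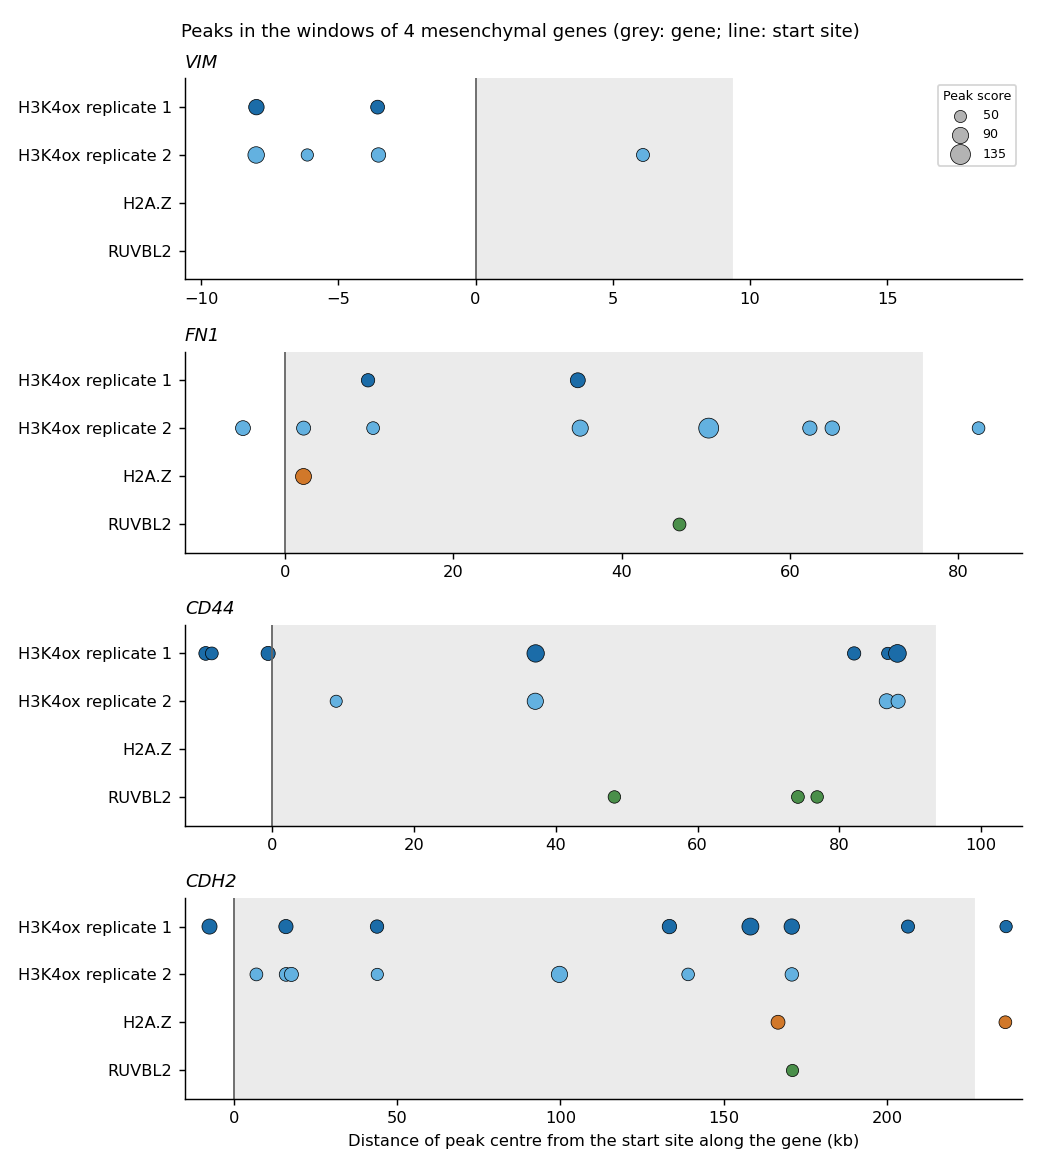
All 50 member peaks by the distance of their centres from the start site in kb, along the direction of transcription, with 1 panel per gene and 1 row per list. Dot area is proportional to the peak score, grey marks the gene and the line the start site. H2A.Z and RUVBL2 rows are empty for VIM, the H2A.Z row is empty for CD44, and the only RUVBL2 dot aligned with both H3K4ox rows is in CDH2.

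The scores of the members were low within the H3K4ox and RUVBL2 lists, while the 3 H2A.Z members had a median close to that of their list. The score is the authors' own value for each peak. No source states its unit, so it serves only to rank peaks within a list. Of the 50 members, 9 scored above the median of their list, where 50% of all peaks do by construction in each list. These were 3 of 19 in H3K4ox replicate 1, 5 of 23 in replicate 2, 1 of 3 in the H2A.Z list and 0 of 5 in the RUVBL2 list. Median scores were 68.27 and 67.72 for the members of the H3K4ox replicates, against 83.41 and 82.01 for the whole lists. For RUVBL2 the median was 53.29 for the members, against 73.41 for the list, and for H2A.Z it was 66.02 against 66.67. A single member, the FN1 peak of score 134.96, was in the upper 25% of its list, 0 were in the upper 10% and 6 were in the lowest 10%. Member peaks were also narrower, with median widths of 781 and 678 bp against 841 and 818 bp in the H3K4ox lists and 743 bp against 870 bp in the RUVBL2 list. For H2A.Z both medians were 808 bp.

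**Figure D4:**
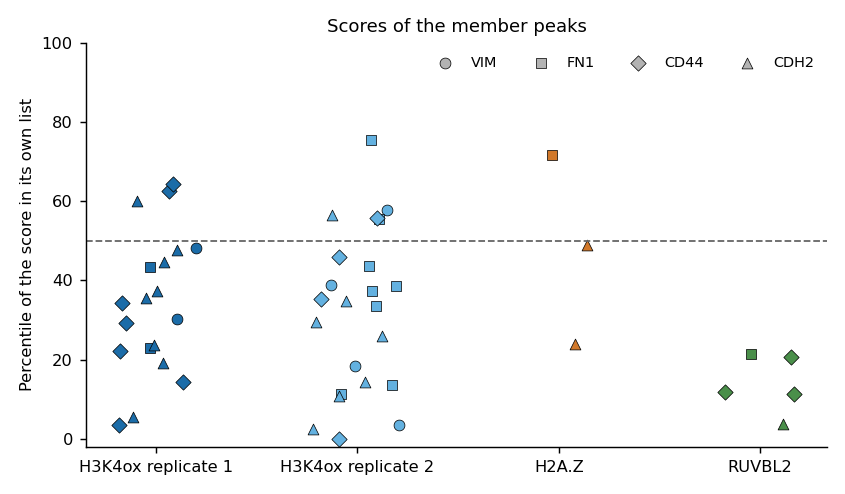
Percentile of each member peak's score within its own list, from 0 for the lowest to 100 for the highest, with markers by gene. The dashed line is the list median, and 9 of the 50 peaks lie above it, none of them RUVBL2 peaks.

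Replicates of H3K4ox shared fewer of these peaks than of the lists as a whole, by more than the counting interval in replicate 2 only. In replicate 1, 10 of 19 members (52.6%, 95% Wilson interval 31.7 to 72.7) met a peak of replicate 2, against 67.8% of the list. In replicate 2, 10 of 23 members (43.5%, 95% Wilson interval 25.6 to 63.2) met a peak of replicate 1, against 70.2% of the list. Agreement depends on score, and for all peaks of like score to the members, taken in 10 groups of equal size by score, it was 55.4% in replicate 1 and 56.8% in replicate 2. Both of these lie within the members' intervals, which cover counting error only. The share of the whole list, 67.8%, also lies within the interval of replicate 1, whereas the 70.2% of replicate 2 lies above its interval. By gene, the share was 2 of 2 and 2 of 4 for VIM, 2 of 2 and 2 of 8 for FN1, 3 of 7 and 3 of 4 for CD44, and 3 of 8 and 3 of 7 for CDH2.

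No site near the 4 genes held all 3 antibodies' peaks. Merging both replicates gave 10 H3K4ox regions with peaks of each, 2 in VIM, 2 in FN1, 3 in CD44 and 3 in CDH2. RUVBL2 was at 1 of the 10, the CDH2 site, against 38.5% of the 162645 such regions of the genome. H2A.Z was at 0 of the 10, against 10.3%, and joint sites with both were 0 of 10, against 6.21%. With 10 regions and 6.21% in the genome, a count of 0 is near the background. These genome shares are over regions of every score, and shares for regions of like score to the 10 are not given. Seen from the other lists, 1 of 5 RUVBL2 members met H3K4ox of either replicate, against 81.9% of the list, and 1 of 5 met a region shared by both replicates, against 64.4%. Of the 3 H2A.Z members, 2 met H3K4ox of either replicate, against 64.9% of the list, and 0 met a shared region, against 45.2%. H2A.Z and RUVBL2 members did not meet each other, which holds for 0 of 3 and 0 of 5 peaks, against 33.4% of the H2A.Z list and 11.8% of the RUVBL2 list. Over RUVBL2 peaks of like score to the members, 68.5% met H3K4ox of either replicate, 43.3% a shared region and 7.73% an H2A.Z peak. The members compared here are few.

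The distance to the next joint site was longest for FN1. It was 336.9 kb from the start of VIM, 1864 kb from that of FN1, 257.2 kb from that of CD44 and 116.35 kb from that of CDH2, where the median over points spaced 10 kb apart along the genome was 173.1 kb. Of these points, 2.13% were as far from a joint site as FN1 or farther, 30.5% for VIM, 38.4% for CD44 and 60.7% for CDH2. Neighbouring points share the same sites and are not independent. To the nearest RUVBL2 peak the start sites were 10.5 kb away in VIM, 46.5 kb in FN1, 42.2 kb in CD44 and 25.8 kb in CDH2, with a genome median of 12.1 kb. To the nearest H3K4ox shared region they were 3.18, 9.55, 36.6 and 15.7 kb away in the same order of genes, with a genome median of 7.51 kb.

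**Figure D5:**
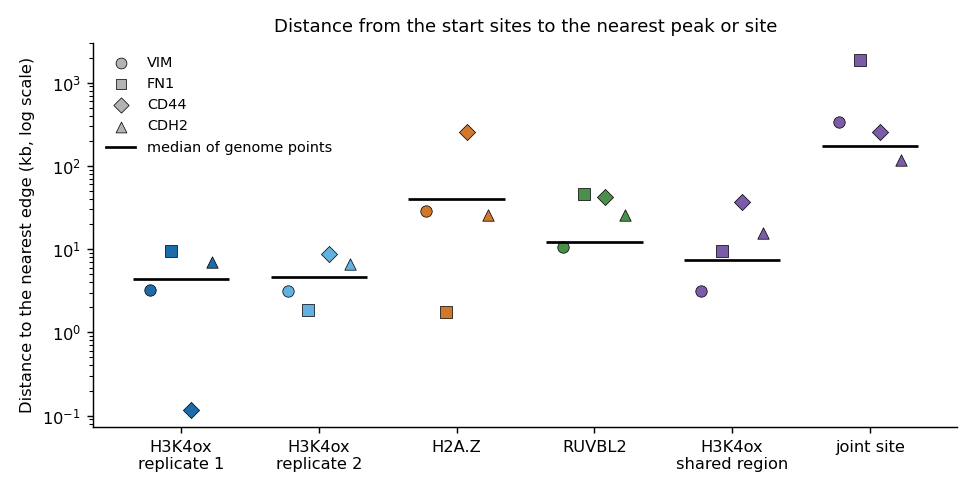
Distance in kb, on a log scale, from each start site to the nearest edge of a peak of each list, of an H3K4ox region shared by both replicates, or of a joint site with H3K4ox, H2A.Z and RUVBL2. Markers are genes and black lines are medians over points spaced 10 kb apart along the genome. CD44 has the shortest distance, 0.117 kb to H3K4ox replicate 1, and FN1 the longest, 1864 kb to a joint site.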

How the data were processed

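ChIP-seq peak lists of MDA-MB-231 cells were analysed for 4 of the 15 samples, grouped by the antibody in the labels: H3K4ox (2 libraries), H2A.Z (1) and RUVBL2 (1). The other 11 samples were not analysed here. Per the file headers, peaks bear names of the caller MACS, and the H3K4ox headers alone name an input. Build hg19 and the aligners Bowtie and TopHat, with no versions, appear in the submitters' processing notes. The deposited score of each peak was used as the authors gave it, with 1 list per library and no pooling. The meaning of the score and the MACS settings were not given in the sources read.

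Peaks were counted with pandas 2.3.3 and numpy 2.4.6 in Python 3.11.15, with positions counted from 1. Wilson intervals came from scipy 1.17.1 and plots from matplotlib 3.10.9. Depth is unknown, so precision rests on the 2 H3K4ox replicates. Overlap meant at least 1 bp. Strand and sequences came from RefSeq tables of GRCh38.p14, which matched 4 of 4 genes. The counting was tested on simulated data. No test was run: H2A.Z and RUVBL2 have 1 library each, and the 2 H3K4ox libraries are given as mean and SD only. Genes, lists and comparisons were chosen with earlier results of these data known. Named peaks were the best-scoring and the nearest to the start of each gene and list, and every joint site. Regions shared by both H3K4ox replicates and the other peaks named were chosen after their values were seen. Further mesenchymal genes were not used, for want of an hg19 annotation. Alternatives were other flanks, the upper 50% by score, peak centres, other start-site windows and leaving out a replicate. Keeping windows over long peak-free stretches was added after seeing the data.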

Additional observations from a re-analysis of the deposited data

How the results depend on the processing

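The density of H3K4ox in the 4 windows, 0.433 ± 0.058 (SD, n = 2) peaks per 10 kb with 10 kb flanks, moved by more than this SD with other flanks. It was 0.370 with no flanks, 0.503 with 50 kb flanks and 0.0825 with only the best-scoring 50% of peaks kept. This last density was 0.190 ± 0.070 (SD, n = 2) times the genome mean of the same peaks. RUVBL2 had 0 peaks in the upper 50% by score. Each H3K4ox replicate alone gave 0.392 or 0.474 peaks per 10 kb, and using peak centres changed no density. RUVBL2 had 0.186 peaks per 10 kb with 50 kb flanks and 0.123 with none, both within its counting interval. The H2A.Z density stayed within its counting interval under each alternative. The count of joint sites was also 0 with 50 kb flanks and with either H3K4ox replicate alone, and the stricter alternatives could not raise it. Without flanks, 15 of 16 densities of single genes stayed within their counting interval. At counts this low the intervals are wide and a count of 0 cannot fall, so this says little about stability. H3K4ox replicate 1 in VIM was 0, which put VIM below CD44 in that replicate, at 0 against 0.428 peaks per 10 kb. With 2 kb on either side of the start, FN1 was added for H3K4ox replicate 2 and for H2A.Z. Windows of that length along the genome held a peak in 32.3% of cases for H3K4ox replicate 2 and 5.99% for H2A.Z. With 500 bp the counts did not change, and the genome shares were 17.0% and 16.4% for the H3K4ox replicates, 2.51% for H2A.Z and 7.70% for RUVBL2. Keeping long peak-free stretches raised the 16 shares of windows by 0.80 to 3.96 percentage points. No paired analysis was possible because no result came from a test. The lists hold peaks above a minimum score only, so a gene without a peak has no measured level, and H2A.Z and RUVBL2 counts of 0 to 3 a gene have no replicate.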

Other observations

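The RUVBL2 peak nearest to the start of CD44, at chr11:35115887-35118193 and 42.2 kb before it, had a score of 294.31, above 95.2% of its list, a width of 2307 bp and H3K4ox peaks of both replicates, while the 3 RUVBL2 peaks inside CD44 scored 53.15 to 56.33 and met none. The nearest H2A.Z peak to CD44, 257.0 kb after the start at chr11:35417463-35418776, had a score of 120.98 and met H3K4ox of both replicates and RUVBL2. Before CDH2, 25.8 kb from the start, an H2A.Z peak at chr18:25783208-25784215 with a score of 113.17 overlapped a RUVBL2 peak with a score of 50.38 and no H3K4ox peak of either replicate.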
